A study of Homo sapiens with 2 samples.

Results

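Receptor tyrosine kinases are single-pass membrane proteins that carry a ligand-binding region outside the cell and a tyrosine kinase inside it. Ligand brings receptors together, the kinases phosphorylate each other, and the phosphotyrosines recruit adaptors that switch on RAS and phosphoinositide 3-kinase (PI3K). In acute myeloid leukaemia the class III receptors FLT3 and KIT are the best known members, and both are recurrently mutated in the disease. When PI3K or AKT is inhibited in carcinoma lines, transcripts of some receptors, ERBB3 among them, are known to increase as part of a feedback loop.

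The 49 receptor genes described here were taken by name from a fixed list, and all 49 were found by symbol among the 60623 genes of the count files. That list was chosen with earlier results of these data known. So were the lists of ligands, coreceptors, adaptors and attenuators used below. Their shares beside those of all measured genes are therefore description only. INSR, IGF1R and CSF1R were not included. Of the 49, 23 had a summed count of at least 20 over both libraries and are called measured, as were 15660 of all genes. The study compared 2 cultures of OCI-AML3, an NPM1-mutant human acute myeloid leukaemia line labelled as wild type in genotype and as derived from bone marrow. One library came from cells kept for 24 h in 50 nM omipalisib (GSK2126458), an inhibitor of PI3K and mTOR, and the other from cells given the vehicle DMSO for the same time. Both cultures grew in serum-containing medium, which itself supplies growth factors.

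RNA was sequenced with strand information, and totals of 26367832 (DMSO) and 22599164 (omipalisib) fragments were counted. All 12 myeloid markers checked were measured, among them CD33 and CEBPA, while none of 7 endothelial markers was. Of the 7 stromal markers 3 were measured, of the 7 neural markers 2, and of the epithelial, mast cell, erythroid and megakaryocyte, and lymphoid markers 1 each. There is 1 library per treatment, so differences have no replicate check and no p-value is given. The 95% intervals hold only the error of counting, so they describe this pair of libraries and not the treatments in general. A log2 ratio is omipalisib over DMSO after scaling, and a gene is called higher or lower where its interval excluded 0. In bulk RNA, fewer cells expressing a gene and less RNA per cell cannot be told apart.

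The measured receptors went both ways. In the omipalisib library 8 of the 23 were higher, namely NTRK3, DDR1, PDGFRA, EPHB3, MERTK, ERBB2, RET and RYK. A further 6 were lower, namely EPHB2, FGFR4, DDR2, TYRO3, LTK and FGFR3, and for 9 the interval included 0. Higher receptors were 34.8% of those measured, against 26.1% of all measured genes, and lower receptors were 26.1%, against 28.6% of all measured genes. The median log2 ratio of the 23 was 0.09, with an order-statistic interval of −0.29 to 0.58, and that of all measured genes was 0.003. NTRK3 and DDR1 were at least 2-fold higher, 8.70% of the measured receptors against 4.02% of all measured genes. No receptor was at least 2-fold lower, against 1.29% of all measured genes. With a minimum summed count of 50, or without receptors that overlap another gene on their strand, NTRK3 alone remained above 2-fold.

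**Figure D1:**
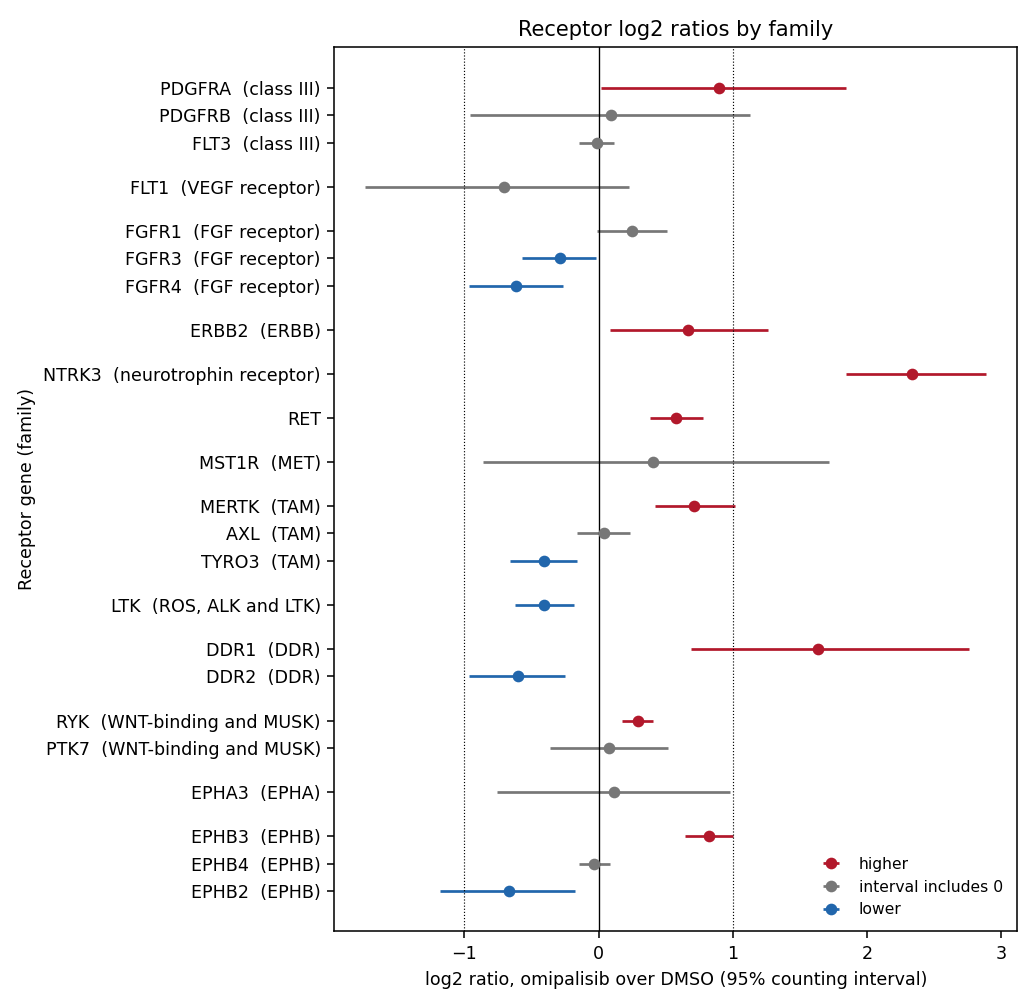
Log2 ratio of omipalisib over DMSO (x axis) for the 23 measured receptors, grouped by family, with 95% counting intervals. Red points are higher, blue lower, and grey points have intervals that include 0; dotted lines mark a ratio of 2. NTRK3 at 2.33 lies farthest right, and the EPHB, TAM and DDR families each hold a red and a blue point.

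Levels were compared between genes per exon length, in TPM, the length-corrected share of a library's transcripts. The length is the total of all annotated exons of a gene, so the order depends on the annotation as well as on the counts. By TPM FLT3 was the most abundant receptor transcript, with 33.8 TPM in DMSO (95% counting interval 31.9 to 35.9) and 34.8 TPM in omipalisib. By counts EPHB4 and RYK exceeded FLT3 in both libraries, and their exon totals are longer (6437 and 8047 bases against 4159). EPHB4 followed with 25.8 TPM in DMSO, then RYK with 18.8, LTK with 16.0 and EPHB3 with 12.2. These 5 genes made up 68.3% of the summed TPM of the 49 receptors in DMSO and 68.4% in omipalisib. AXL, at 11.3 TPM in DMSO, could not be ordered against EPHB3 there, since their intervals overlapped. RET (7.31 TPM) and FGFR3 (7.04 TPM) overlapped too, as did FGFR4 (5.17), MERTK (4.52) and TYRO3 (4.13). The other measured receptors ranged from 0.172 TPM (DDR1) to 2.28 TPM (FGFR1) in DMSO. The summed level of all 49 was 156 TPM in DMSO and 175 TPM in omipalisib. EPHB3 passed LTK in the omipalisib library, and NTRK3 moved from rank 23 to rank 15 by TPM.

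**Figure D2:**
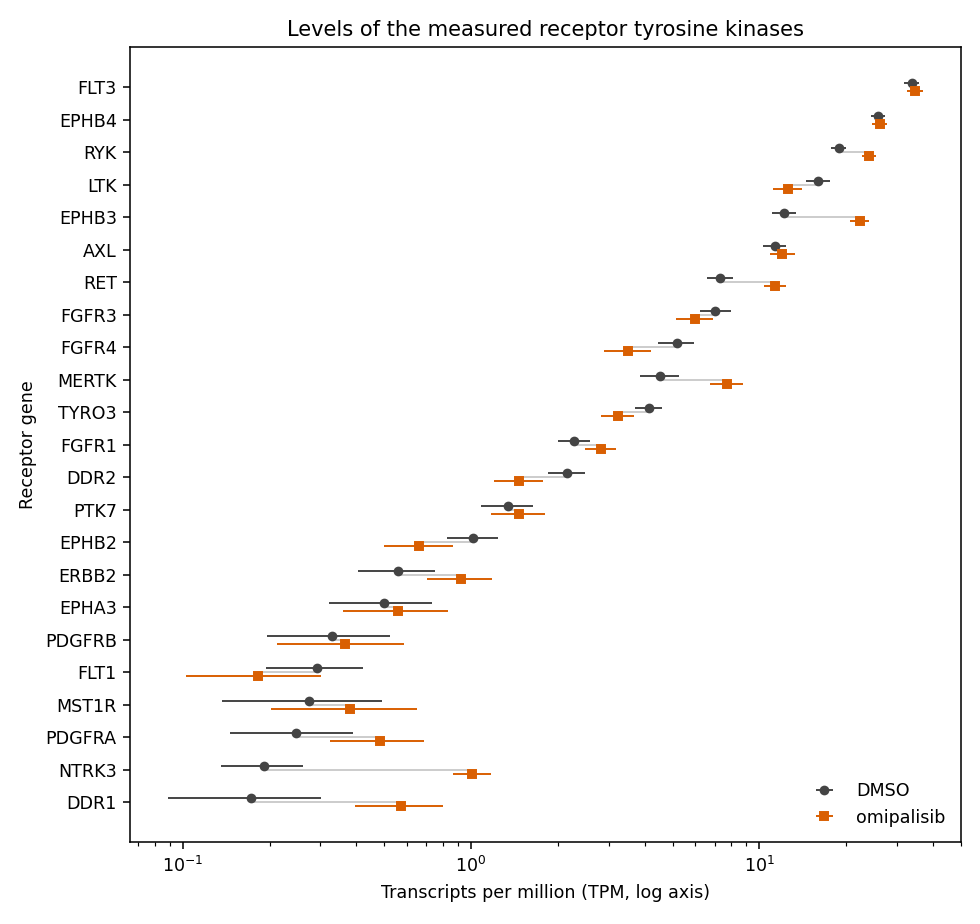
Level of each measured receptor in TPM on a log axis, with DMSO as dark circles and omipalisib as orange squares; bars are 95% Poisson intervals of the counts. FLT3 and EPHB4 sit at the top with overlapping symbols, while the NTRK3 symbols lie apart, at 0.191 and 1.01 TPM.

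Among the class III receptors, FLT3, the receptor for the haematopoietic cytokine FLT3 ligand, had 1076 counts in DMSO and 944 in omipalisib. Its log2 ratio was −0.015 (−0.14 to 0.11), the narrowest interval around 0 in this family. KIT, the stem cell factor receptor, had 0 counts in both, which allows up to 0.114 CPM (counts relative to the library total) in DMSO and 0.133 CPM in omipalisib at 3 counts. PDGFRA, a receptor for platelet-derived growth factors, had 18 and 30 counts and was higher, at 0.90 (0.02 to 1.84). The lower bound is close to 0, and the interval included 0 once a trend of the ratio with gene length was removed. PDGFRA also overlaps another annotated gene on its strand, so fragments in the shared exons were not counted for it. PDGFRB had 18 and 17 counts, too few to place its ratio on either side of 0. PDGFRA, KIT and KDR lie side by side on chromosome 4 (GRCh38, PDGFRA at 54229280 to 54298245, KIT at 54657918 to 54740715), and of the 3 only PDGFRA was detected.

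FLT1, a receptor for vascular endothelial growth factor (VEGF) and the chromosome 13 neighbour of FLT3, had 28 and 15 counts, at −0.71 (−1.74 to 0.23). The gap between FLT3 (28003274 to 28100592) and FLT1 (28300346 to 28495145) is 200 kb. KDR and FLT4, the other VEGF receptors, had no counts, nor did TEK and TIE1, the angiopoietin receptor and its partner. These receptors are typical of endothelial cells, of whose 7 markers CDH5, CLDN5 and ROBO4 were also at 0 in both libraries. The other 4 had a few counts, in DMSO and omipalisib, with ESAM at 6 and 8, PLVAP at 2 and 5, VWF at 1 and 5 and EMCN at 0 and 2, and the 7 summed to 0.341 CPM and 0.885 CPM.

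The fibroblast growth factor (FGF) receptors were detected except FGFR2, which had 0 counts. FGFR4 had 190 and 110 counts and was lower, at −0.61 (−0.97 to −0.27). FGFR3 had 261 and 189 counts, at −0.29 (−0.57 to −0.02), and its interval included 0 under total count scaling (−0.24), under upper quartile scaling (−0.23) and with the DMSO library thinned (−0.21). FGFR1 had 241 and 254 counts, at 0.25 (−0.01 to 0.51), and was called higher under total count (0.30) and upper quartile (0.31) scaling. The FGFR3 pseudogenes had 0 counts, though fragments that align to a gene and its copy may be missing from both.

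NTRK3, which encodes the neurotrophin-3 receptor TRKC, had the largest ratio among the measured receptors. It had 39 counts in DMSO and 176 in omipalisib, a log2 ratio of 2.33 (1.84 to 2.89) or a 5.04-fold difference. The gene lies on the minus strand of chromosome 15, its exons span 26750 bases in total, and the antisense gene NTRK3-AS1 had no counts. Its level stayed low in both libraries, at 0.191 and 1.01 TPM, and the long exon total lowers its TPM. NTRK2, the receptor of brain-derived neurotrophic factor, had 0 counts. Of the neural markers, RBFOX3, SOX10 and STMN2 were at 0 in both libraries, and the summed level of the 7 was 2.81 CPM in DMSO and 1.81 CPM in omipalisib. The highest of them, SYP, had 51 and 26 counts, the opposite direction to NTRK3.

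Among the receptors whose ligands are best known from epithelial and neural tissue, RET, the signalling receptor of the glial cell line-derived neurotrophic factor (GDNF) family, had 384 and 509 counts. Its log2 ratio was 0.58 (0.39 to 0.78), a 1.49-fold difference. ERBB2, the ERBB family member that has no ligand of its own, had 44 and 62 counts, at 0.66 (0.09 to 1.26). That interval included 0 with the DMSO library thinned, at 0.47 (−0.11 to 1.08). ERBB3, which binds neuregulins and has a weak kinase, fell just short of the measured genes with 13 and 5 counts, too few to read a direction. ERBB3 also overlaps another annotated gene on its strand, so fragments in the shared exons were not counted for it. EGFR had 0 and 1 counts and ERBB4 none. MST1R, the receptor for macrophage-stimulating protein, was the least covered measured receptor, with 11 and 13 counts, while its relative MET, the hepatocyte growth factor receptor, had 1 and 3.

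The TAM receptors, named for TYRO3, AXL and MERTK, bind GAS6 and protein S and serve the uptake of dying cells by macrophages. All 3 were measured and they differed from each other. MERTK had 158 and 230 counts and was higher, at 0.71 (0.42 to 1.02). AXL had 443 and 403 counts, at 0.04 (−0.16 to 0.24). TYRO3 had 340 and 227 counts and was lower, at −0.41 (−0.66 to −0.16). The processed pseudogene TYRO3P held 2 and 5 counts, with the same limit on shared fragments. LTK, a receptor related to ALK, lies 43.8 kb from TYRO3 on chromosome 15 (LTK at 41503637 to 41513887, TYRO3 at 41557675 to 41583589) and had nearly the same ratio. It had 427 and 286 counts, at −0.40 (−0.63 to −0.18). ALK and ROS1 had 0 counts.

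The collagen receptors DDR1 and DDR2 differed in opposite directions. DDR2 had 182 and 106 counts, at −0.60 (−0.97 to −0.25). DDR1 had 12 and 34 counts, at 1.64 (0.69 to 2.76), and its exons contain the microRNA gene MIR4640 on the same strand. COL1A2, a fibrillar collagen chain in the stromal marker list, was itself well covered, with 2507 and 1564 counts. Of the other collagen chains in that list, COL1A1 had 0 and 4 counts and COL3A1 had none.

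Of the WNT-binding receptors, RYK, whose kinase region is catalytically inactive, had 1159 and 1257 counts and was the most covered member. Its log2 ratio was 0.29 (0.17 to 0.41), a small difference with a narrow interval. PTK7, another receptor with an inactive kinase, had 92 and 86 counts, at 0.08 (−0.36 to 0.52). ROR1 and ROR2 had 1 count each in all, and MUSK, the agrin-responsive receptor of the neuromuscular junction, had 2.

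The EPH receptors bind membrane-anchored ephrins on neighbouring cells, and the 5 B class genes held 1794 counts in DMSO against 27 for the 7 A class genes. EPHB3 had 421 counts in DMSO and 660 in omipalisib, at 0.82 (0.64 to 1.002), a 1.77-fold difference. EPHB4 had 1268 and 1100 counts, at −0.031 (−0.15 to 0.09). EPHB2 had 97 and 54 counts and was lower, at −0.67 (−1.18 to −0.18). EPHB6, which lacks kinase activity, had 8 and 6 counts, the next below the minimum after ERBB3. Of the 7 EPHA genes only EPHA3 was measured, with 25 and 24 counts, at 0.12 (−0.76 to 0.98), and EPHA4, EPHA5 and EPHA7 had 0.

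In all, 14 of the 49 receptors had 0 counts in both libraries, also including INSRR. The other 12 below the minimum had summed counts of 1 to 18, and besides those named above these were EPHA2, STYK1, EPHB1, EPHA1 and EPHA10. No direction is given for them. The members nearest the minimum were MST1R (24) and PDGFRB (35) above it and ERBB3 (18) and EPHB6 (14) below it.

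Relatives within a family were then compared directly, because a difference between 2 genes of the same libraries does not depend on how the libraries are scaled. All 14 pairs of measured receptors within a family were taken, in 6 families, and for 10 the exact interval of the difference in log2 ratio excluded 0. The intervals are not adjusted for the number of pairs. The same count was not taken for pairs of other genes, so it does not mark receptor families as unusual. DDR1 exceeded DDR2 by 2.28 (1.22 to 3.42) and EPHB3 exceeded EPHB2 by 1.49 (0.96 to 2.03). EPHB3 lay 0.85 (0.64 to 1.07) above EPHB4, which lay 0.64 (0.13 to 1.16) above EPHB2, so all 3 measured B class receptors were separated. The TAM receptors were separated as well, with MERTK 1.12 (0.73 to 1.52) above TYRO3, MERTK 0.68 (0.32 to 1.04) above AXL, and AXL 0.45 (0.13 to 0.77) above TYRO3. FGFR1 lay 0.86 (0.43 to 1.30) above FGFR4 and 0.54 (0.16 to 0.92) above FGFR3, while FGFR3 and FGFR4 did not separate, with a difference of 0.32 (−0.13 to 0.77). RYK and PTK7 did not separate either (0.21, −0.24 to 0.67). PDGFRA exceeded FLT3 by 0.93 (0.02 to 1.87), and this interval included 0 once the length trend was removed (−0.06 to 1.78).

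**Figure D3:**
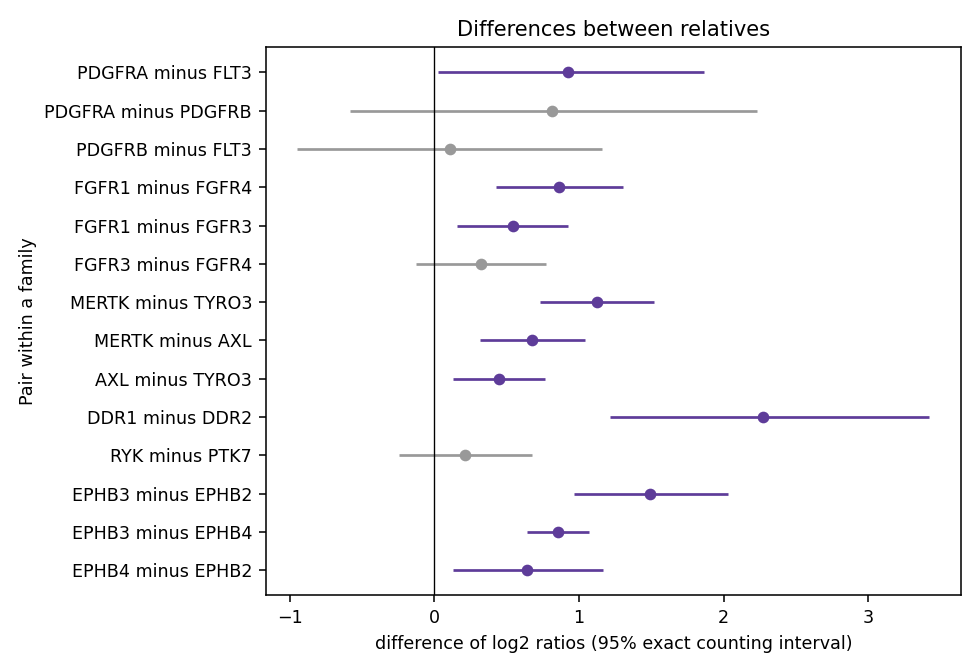
Difference in log2 ratio between measured receptors of the same family (x axis), with exact 95% counting intervals; purple marks the 10 of 14 pairs whose interval excludes 0 and grey the others. The widest separations are DDR1 minus DDR2 at 2.28 and EPHB3 minus EPHB2 at 1.49.

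Seen among all 15660 measured genes, most receptors were of modest coverage. The measured receptors had a median summed count of 300.0, against 967 for all measured genes, and a median exon length of 7135 bases, against 4510.5. Among the 10492 genes with summed counts in the receptors' own range, 26.1% were higher, 19.3% lower, 5.39% past 2-fold upward and 1.66% past 2-fold downward. The share of lower genes among them was therefore smaller than among all measured genes. Of the measured receptors 26.1% were lower, above this 19.3% and below the 28.6% of all measured genes. The 34.8% of receptors that were higher lay above both shares of higher genes.

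**Figure D4:**
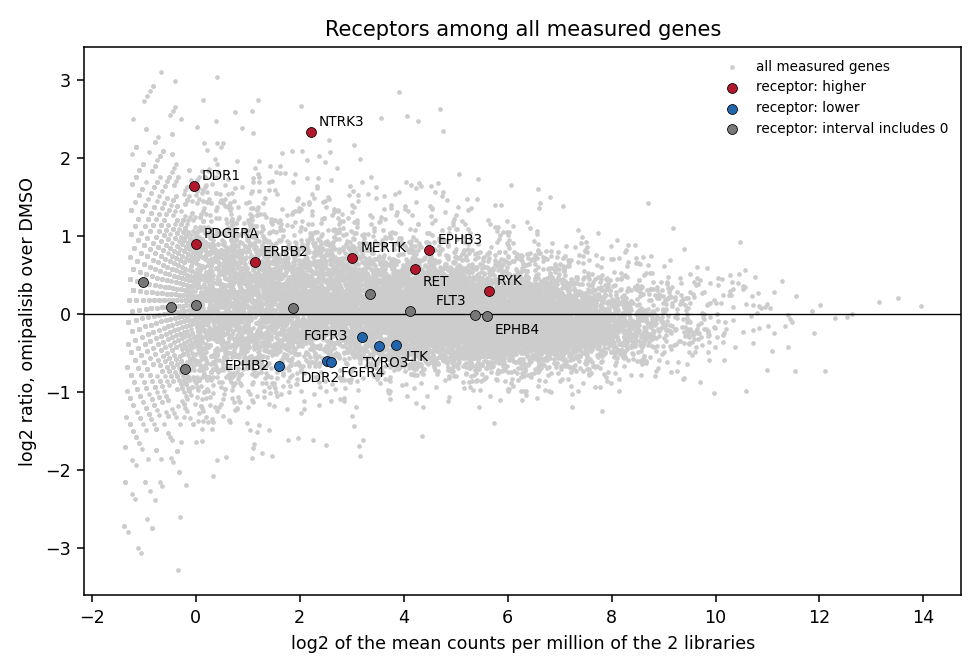
Log2 ratio (y axis) against the log2 of the mean CPM of both libraries (x axis) for 15660 measured genes in grey and the 23 measured receptors in colour. NTRK3 lies at the upper edge of the genes of its coverage, while FLT3 and EPHB4 lie on the zero line and the 6 lower receptors lie between −0.29 and −0.67.

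Ligands showed some of the larger differences. Of 64 ligand genes listed, 29 were measured, 8 of them higher and 5 lower, shares of 27.6% and 17.2% against 26.1% and 28.6% of all measured genes. Their median was 0.21 (−0.06 to 0.74), beside 0.003 for all measured genes. Measured ligands had a median summed count of 159, against 967 for all measured genes, so the shares are not matched for coverage. Under total count scaling the split was 10 higher and 3 lower. At least 2-fold higher were 4 of the 29, against 4.02% of all measured genes. They included NRG4, a ligand of ERBB4, with 72 and 235 counts (1.87, 1.49 to 2.28), and HGF, the ligand of MET, with 24 and 79 counts (1.87, 1.22 to 2.62). The other two were MST1, the ligand of MST1R, with 228 and 420 counts (1.05), and ANGPT1, the activating ligand of TEK, with 15 and 32 counts (1.24, 0.34 to 2.26). MST1 overlaps an annotated gene on its strand and has close pseudogene copies, so its count is uncertain. For these ligands the receptors were at or near the detection limit, since ERBB4 and TEK had 0 counts, MET 4 in all and MST1R 24. PGF, a FLT1 ligand, was at least 2-fold lower with 22 and 4 counts (−2.15, −4.28 to −0.73). WNT5A, a ligand of RYK, had 37 and 17 counts (−0.93, −1.87 to −0.08), and AGRN, the MUSK ligand, had 4939 and 3528 (−0.31), with an overlapping gene on its strand.

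Ligands and receptors that were both measured were set side by side. RYK was higher and WNT5A lower, and LTK was lower while its ligand gene ALKAL1, with 70 and 89 counts, was higher at 0.52 (0.05 to 0.99). PDGFRA was higher, as was PDGFC at 0.74 (0.08 to 1.43), while the interval of PDGFA (9 and 14 counts) included 0. PDGFD was higher at 0.74 (0.38 to 1.11) beside PDGFRB, whose interval included 0. Beside FLT1, whose interval included 0, VEGFA was lower at −0.18 (−0.34 to −0.03) and the interval of VEGFB included 0. FGF2 (16 and 23 counts), set beside FGFR1, FGFR3 and FGFR4, also had an interval that included 0. For the TAM ligands the intervals included 0, with PROS1 at 0.10 (−0.08 to 0.29) and GAS6 at −0.39 (−1.60 to 0.72). For RET the ligand genes GDNF (19 and 30 counts), ARTN (68 and 70) and PSPN (129 and 97) had intervals that included 0. EFNB1, an ephrin that binds EPHB2 and EPHB3, had 148 and 117 counts, at −0.16 (−0.53 to 0.19). EFNB3, set beside the same receptors, had 30 and 31 counts and an interval that included 0. Beside EPHA3, EFNA4 was higher at 0.38 (0.001 to 0.76), with a bound next to 0, and the interval of EFNA3 included 0. Under DESeq2 scaling 7 ligands were higher, in place of 8. EFNA4 and EFNA3 both overlap another annotated gene on their strand, so fragments in the shared exons were not counted for them. The RET coreceptors GFRA1, GFRA2 and GFRA4 had 0 counts and GFRA3 had 3 and 2. FLT3LG, the FLT3 ligand, had 11 and 6 counts, NTF3, the NTRK3 ligand, had 0, and KITLG had 1 and 1.

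Genes that carry or restrain the receptor signal were better covered. Of 42 adaptors and effectors, 39 were measured, 15 of them higher and 11 lower, or 38.5% and 28.2% beside the 26.1% and 28.6% of all measured genes. Their median was 0.05 (−0.09 to 0.22), and none differed 2-fold. With a median summed count of 2323, against 967 for all measured genes, their shares are not matched for coverage. The higher genes with the bounds farthest from 0 were RASA1, a GTPase-activating protein for RAS, with 2839 and 4077 counts (0.70, 0.63 to 0.77), the docking protein GAB2 with 118 and 187 (0.84) and the RAS exchange factor SOS2 with 993 and 1340 (0.61). The lower ones were the adaptor CRKL with 5357 and 3684 counts (−0.37, −0.43 to −0.31), the phosphatase PTPN11 with 7624 and 5543 (−0.29) and the adaptor SHC1 with 3452 and 2509 (−0.29), which overlaps PYGO2 on its strand.

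Of 26 attenuators of receptor signalling, 21 were measured, 9 of them higher and 5 lower, which is 42.9% and 23.8% where all measured genes gave 26.1% and 28.6%. Their median was 0.05 (−0.13 to 0.29). The measured attenuators had a median summed count of 2345, against 967 for all measured genes, so these shares are not matched for coverage either. Under upper quartile scaling the split was 10 higher and 3 lower. CBLB, a ubiquitin ligase that tags active receptors for degradation, had 176 and 334 counts and was the only attenuator at least 2-fold higher, at 1.10 (0.83 to 1.37). PTPRF, a receptor phosphatase, had 0.46 (0.34 to 0.58) and the endocytic adaptor SH3KBP1 had 0.34 (0.29 to 0.40). The lower ones included the phosphatases PTPN6 (−0.13) and PTPN1 (−0.19) and the adaptor of ubiquitin ligases SOCS6 (−0.22). Of 18 coreceptors 11 were measured, 1 higher and 5 lower, or 1 and 3 under total count scaling. These were 9.09% and 45.5% of the measured coreceptors, with 26.1% and 28.6% as the shares over all measured genes. Coverage was again unmatched, with a median summed count of 556 for the measured coreceptors. CD44, a hyaluronan receptor, was the higher one, with 13905 and 16993 counts (0.46). The proteoglycans SDC2 (−0.32), GPC1 (−0.45) and SDC1 (−1.47, −3.01 to −0.28, from 23 and 7 counts) were among the lower ones.

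**Figure D5:**
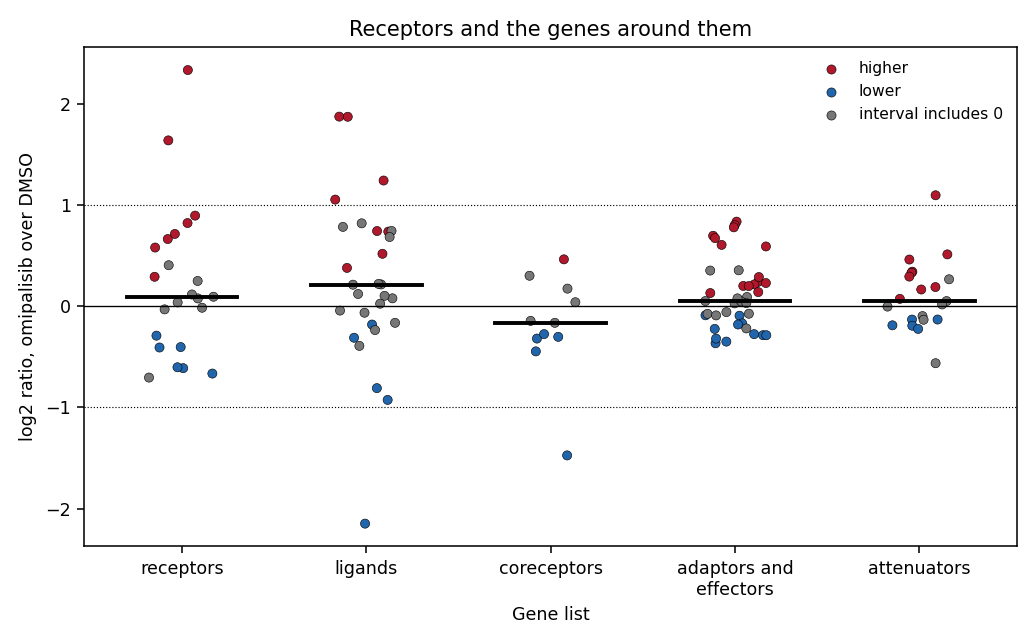
Log2 ratio (y axis) of the measured genes in each list, with the median as a black bar and dotted lines at a ratio of 2; red is higher, blue lower, and grey has an interval that includes 0. Receptors and ligands spread past the dotted lines, while all 39 adaptors and effectors lie between −0.37 and 0.84.

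Upstream sequence is shown for 4 of the higher receptors, with no binding data behind it, so that a reader can see what lies before genes that moved in the same direction. The 4 were picked without a set rule. Of the higher receptors not shown, MERTK and RYK held none of the searched motifs upstream, and ERBB2 held the AP-1 motif. The bases come from the RefSeq promoter table (GRCh38.p14), on the gene's strand, and end where the gene begins in the count files. Capitals mark a match to a searched motif.
NTRK3: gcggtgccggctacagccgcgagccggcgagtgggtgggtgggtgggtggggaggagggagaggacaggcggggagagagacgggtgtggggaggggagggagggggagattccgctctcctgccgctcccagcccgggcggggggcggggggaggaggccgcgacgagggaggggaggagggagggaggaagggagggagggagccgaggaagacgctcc
EPHB3: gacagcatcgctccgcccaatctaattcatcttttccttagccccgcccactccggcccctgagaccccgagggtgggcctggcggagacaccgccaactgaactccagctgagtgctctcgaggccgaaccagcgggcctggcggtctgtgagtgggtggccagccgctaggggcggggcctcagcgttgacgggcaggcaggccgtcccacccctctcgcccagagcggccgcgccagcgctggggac
RET: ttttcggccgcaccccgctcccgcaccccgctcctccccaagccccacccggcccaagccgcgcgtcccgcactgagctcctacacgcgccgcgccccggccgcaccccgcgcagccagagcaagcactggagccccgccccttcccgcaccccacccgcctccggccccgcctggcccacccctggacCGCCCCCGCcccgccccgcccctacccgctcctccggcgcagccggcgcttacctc
PDGFRA: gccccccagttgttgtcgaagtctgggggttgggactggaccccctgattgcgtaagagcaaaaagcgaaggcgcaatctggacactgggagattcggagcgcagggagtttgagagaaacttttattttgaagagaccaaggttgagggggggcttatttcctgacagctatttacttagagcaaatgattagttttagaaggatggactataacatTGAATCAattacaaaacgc
The stretches are chr15:88256769-88256989 (minus strand) for NTRK3, chr3:184561535-184561784 for EPHB3, chr10:43076819-43077063 for RET and chr4:54229043-54229279 for PDGFRA, the last 3 on the plus strand. The first 3 are rich in G and C (75.6%, 70.0% and 80.0%) and PDGFRA is not (46.4%). The motifs were searched on both strands in the 250 bases before each RefSeq start, without overlap between them being excluded. These were the FOXO motif GTAAACA, the AP-1 motif TGANTCA, the EGR motif GCGNGGGCG and the E-box CACGTG, found in 2.98%, 6.57%, 8.41% and 6.34% of all 35116 windows. Of the 43 receptors with a window, no measured one held the FOXO motif. Among measured receptors, at any of their RefSeq starts, the AP-1 motif lay before DDR1, ERBB2, PDGFRA and TYRO3. The EGR motif lay before EPHB2, FGFR3, FLT1 and RET, and the E-box before FGFR4 and FLT3. Below the minimum, NTRK2 held the FOXO motif, EGFR the AP-1 motif, EPHA1, EPHA4, FGFR2 and ROR2 the EGR motif and ALK the E-box. The 43 receptors have 73 windows, so receptors holding a motif cannot be compared with shares of windows. The AP-1 and EGR motifs each lay before higher as well as lower receptors. A match is a description of the letters and not a bound site.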

How the data were processed

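RNA of 2 OCI-AML3 cultures was sequenced, and the authors deposited raw counts per gene for each library. Per the file headers, featureCounts 2.0.1 counted read pairs with both ends aligned over exons, with strand setting 2, so fragments shared by genes on the same strand are not counted. No option for fragments with several alignments is recorded; the tool omits these by default, which undercounts genes with close copies. Neither labels nor headers name the aligner. Builds hg19 and GRCh37 appear in the submitters' processing notes, but 58476 of the 58516 genes found in GENCODE release 29 overlap their GRCh38 position, so coordinates are given as GRCh38.

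TMM factors (edgeR 4.0.16 in R 4.3.3) were 0.983 for DMSO and 1.02 for omipalisib. Log2 ratios were taken after adding 0.5 to each count, with exact 95% Clopper-Pearson intervals, and differences between relatives with exact conditional intervals. TPM used the files' exon lengths. Intervals and the limit of 3 counts cover counting error only, and fragments lack molecular identifiers, so they are not independent molecules. With 1 library per group no model was fitted. The ratio and call steps were tested on simulated data. Listed genes were named if at least 2-fold different or among the 3 with bounds farthest from 0 in each direction; listed genes named beside their receptor, and any others, were chosen after their values were seen. The members and lists were chosen with earlier results of these data known. DESeq2 1.42.0 gave an alternative scaling.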

Additional observations from a re-analysis of the deposited data

How the results depend on the processing

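The counts and medians were recomputed under 10 alternatives: total count, upper quartile and DESeq2 scaling, a larger and a smaller pseudocount, a minimum summed count of 50 or none, a DMSO library thinned to the other's total, removal of a length trend, and leaving out genes with a same-strand overlap. The log2 ratios of single receptors were recomputed under the 7 of these that do not change which genes are kept. All 161 such values lay inside the original counting interval and none changed sign where called. A change of scaling moves every ratio by the same amount. These amounts were smaller than the distance from any receptor's ratio to its bounds, so the values under other scalings could not fall outside. The call changed for 4 receptors (FGFR1, FGFR3, ERBB2 and PDGFRA) and for 19 it did not. The pseudocount does not enter the intervals, so under the larger and the smaller pseudocount no call could change. Of 250 alternative counts and medians, 239 stayed within 1.5 times the count or inside the interval of the median. Under total count and under upper quartile scaling, 3 ligands, 3 attenuators and 3 coreceptors were lower, in place of 5 each, and 3 ligands were lower without same-strand overlaps. With a minimum of 50, 1 receptor was at least 2-fold higher, and 0 ligands and 0 coreceptors were at least 2-fold lower, because PGF, SDC1 and DDR1 have fewer counts. Without same-strand overlaps 1 receptor was at least 2-fold higher. The receptor median lay between 0.02 (thinned library) and 0.16 (upper quartile scaling). For the pairs of relatives, 4 alternatives were chosen after seeing the data. The interval excluded 0 for 10 of 14 pairs with the library thinned and 9 of 14 with the length trend removed, and for 8 of the 10 pairs left at a minimum of 50 and 8 of the 11 left without same-strand overlaps. No paired analysis was possible because each group has 1 library. Depth limits the 26 receptors below the minimum, for which no direction can be read.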
